A study of Mus musculus with 6 samples.

Results

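The genes described here encode the proteasome, its regulators and its assembly factors. They were chosen by name: every gene probe of the arrays whose accession maps to a mouse symbol beginning with Psma, Psmb, Psmc, Psmd, Psme, Psmf or Psmg, with the brightest probe kept for each gene. This gave 34 genes of 10568 named on the arrays, each with 1 probe, and 17 further protein-coding genes with these prefixes had no probe matched by accession. RNA was measured on 6 CodeLink 20K mouse arrays. The first group was 3 cultures of mouse embryo fibroblasts that lack p38α (KO), the stress-activated kinase encoded by Mapk14, and the second was 3 wild-type cultures (WT). All cultures, KO and WT alike, had a mixed 129/svev and C57Bl/6 background, had become immortal spontaneously under the 3T3 passaging protocol, carried a stably transduced oncogenic H-Ras G12V, and were collected after 72 h of growth. The labels call the 3 cultures of a genotype biological replicates but not whether they are separately derived lines, so the p-values measure the spread between these cultures, which may be technical. Precision is limited by having 3 arrays a group.

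The proteasome is the main protease of the cytosol and nucleus. A barrel-shaped core particle, built of rings of alpha and beta subunits, cuts proteins at active sites inside the barrel, and a regulatory particle recognises ubiquitin-tagged proteins, unfolds them with a ring of ATPases and feeds them in. Some beta subunits can be exchanged for immunoproteasome subunits, which are induced by interferon and change the peptides made for antigen presentation. Dedicated chaperones assemble both particles, and the transcription factor Nfe2l1 is known to raise proteasome genes together when proteasome activity is short.

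Promoter windows are shown for the 4 genes whose levels differed most between KO and WT. They are the RefSeq windows of GRCm38.p6, 250 bases before to 50 bases after the start of the gene. Capitals mark 3 short motifs on either strand: TGACNNNGC, the core of the antioxidant response element that Nfe2l1 and Nfe2l2 bind, CCAAT, and the GC box GGGCGG.

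Psmb10, chr8:105938343-105938642, minus strand: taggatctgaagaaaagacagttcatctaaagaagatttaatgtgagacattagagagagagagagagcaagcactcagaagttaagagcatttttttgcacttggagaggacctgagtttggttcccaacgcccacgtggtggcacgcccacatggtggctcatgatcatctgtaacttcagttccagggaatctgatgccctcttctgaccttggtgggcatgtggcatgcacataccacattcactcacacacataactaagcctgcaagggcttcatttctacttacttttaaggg
Psmd8, chr7:29180624-29180923, minus strand: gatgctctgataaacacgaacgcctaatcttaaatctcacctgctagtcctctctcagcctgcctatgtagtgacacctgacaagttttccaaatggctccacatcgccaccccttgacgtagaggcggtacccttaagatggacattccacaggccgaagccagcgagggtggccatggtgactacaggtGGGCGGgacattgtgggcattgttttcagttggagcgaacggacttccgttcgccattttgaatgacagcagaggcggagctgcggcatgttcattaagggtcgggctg
Psmd10, chrX:140956662-140956961, minus strand: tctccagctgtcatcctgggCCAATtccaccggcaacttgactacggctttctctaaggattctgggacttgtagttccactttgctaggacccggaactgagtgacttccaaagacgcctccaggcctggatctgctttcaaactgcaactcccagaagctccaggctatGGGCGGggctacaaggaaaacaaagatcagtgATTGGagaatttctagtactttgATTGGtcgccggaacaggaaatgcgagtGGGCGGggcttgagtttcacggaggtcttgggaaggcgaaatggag
Psmb5, chr14:54617946-54618245, minus strand: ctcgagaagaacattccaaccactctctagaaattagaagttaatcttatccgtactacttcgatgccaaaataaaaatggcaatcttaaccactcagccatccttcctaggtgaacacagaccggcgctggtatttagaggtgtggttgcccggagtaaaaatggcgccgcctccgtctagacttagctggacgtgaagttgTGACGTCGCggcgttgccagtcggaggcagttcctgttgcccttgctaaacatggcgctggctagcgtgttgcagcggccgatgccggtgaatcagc

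Only the Psmb5 window of these holds TGACNNNGC, starting 47 bases before the start site. The Psmd8 window holds 1 GC box, the Psmd10 window 2 GC boxes and 3 CCAAT boxes, and the Psmb10 window none of the motifs. Windows were found for 28 of the 34 genes, 29 windows in all. TGACNNNGC was in 5 of them (17.2%), against 12.4% of all 32851 windows. CCAAT was in 11 (37.9%, against 37.4%) and the GC box in 15 (51.7%, against 35.7%). A match is a run of letters and not evidence of binding.

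Between 8677 and 10232 gene probes were above background on an array, the fewest on KO replicate 3, whose median local background was 61 intensity units against 49 to 53 elsewhere. Mapk14 was lower in KO, at a log2 signal of 6.12, 6.16 and 5.94 in KO and 6.95, 7.01 and 7.08 in WT, above background on 1 KO array and all 3 WT arrays (difference -0.94, SE 0.07, limma adjusted p = 7.83e-05). The sources used here do not say whether its probe lies within the deletion. Of the fibroblast markers, 7 of 13 were measured. The collagens Col1a2, Col5a1 and Col6a1, Vim, Sparc and Pdgfrb were above background on every array, and the surface antigen Thy1 on none. All 5 endothelial markers and the pan-leukocyte gene Ptprc were near background on every array, and among the 6 measured macrophage and blood cell markers only Cd14 was above background on all arrays. The epithelial keratins Krt18 and Krt19 were higher in KO, while Epcam and Cdh1 were near background on all arrays. Of the 7 epithelial markers, 5 were near background on every array, and nearly all of the summed intensity in KO was Krt19. This sum, of background-subtracted intensities not normalized between arrays, was 2270 to 3349 in KO and 34.8 to 46.0 in WT. The sums below are of the same kind, so they also hold differences in overall brightness between arrays. That of the 7 fibroblast markers was 25089 to 32463 in KO and 14675 to 17393 in WT, most of it Vim and Sparc. Of these 7, Col6a1, Vim and Sparc were higher in KO, Pdgfrb was lower (difference -0.56, adjusted p = 0.0012), and Col1a2 and Col5a1 differed by -0.29 and -0.20 without passing. The sum of the 6 blood cell markers was 1439 to 1929 in KO and 935 to 1313 in WT. Nearly all of it was Cd14, which differed by 0.32 without passing (adjusted p = 0.075). The part of these differences in the results below was not tested.

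Proteasome genes differed between KO and WT in both directions, most of all Psmb10, lower in KO, and Psmd8 and Psmd10, higher in KO. Values here are normalized log2 signals, and a difference is the KO mean minus the WT mean. Of the 34 genes, 5 were higher in KO, 5 were lower and 24 did not pass an adjusted p of 0.05 in limma. That is 29.4% of them called, against 22.6% of all 19590 probes tested. Of the 34, 32 were above background on all 6 arrays, and 31.2% of these 32 were called, against 41.0% of the 8018 probes that met the same condition. By direction, 14.7% were higher and 14.7% lower, where 10.4% of all probes were called higher and 12.1% lower. Among the probes above background on all arrays these shares were 18.8% and 22.2%. The median difference of the 34 genes was 0.01, with quartiles of -0.21 and 0.23, and that of all probes tested was -0.01. For 21 genes the KO values lay wholly apart from the WT values (61.8%), against 36.0% of all probes and 54.9% of those above background on every array. A change of at least 1.5-fold that also passed the test was seen for 4 genes, Psmb10, Psmd8, Psmd10 and Psmb5, and for 9.44% of all probes. Counted whether called or not, changes of this size made up 11.8% of the 34 genes and 18.4% of the probes above background on all arrays. The split into higher and lower depends on how the arrays are scaled. When arrays were scaled to equal medians instead of quantile normalized, 10 of the genes were higher, 1 was lower, and their median difference was 0.18. That scaling also moved the median of the probes above background on all arrays, to 0.08 from -0.03, and 64.1% of all its calls were higher in KO, against 46.3% here.

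**Figure D1:**
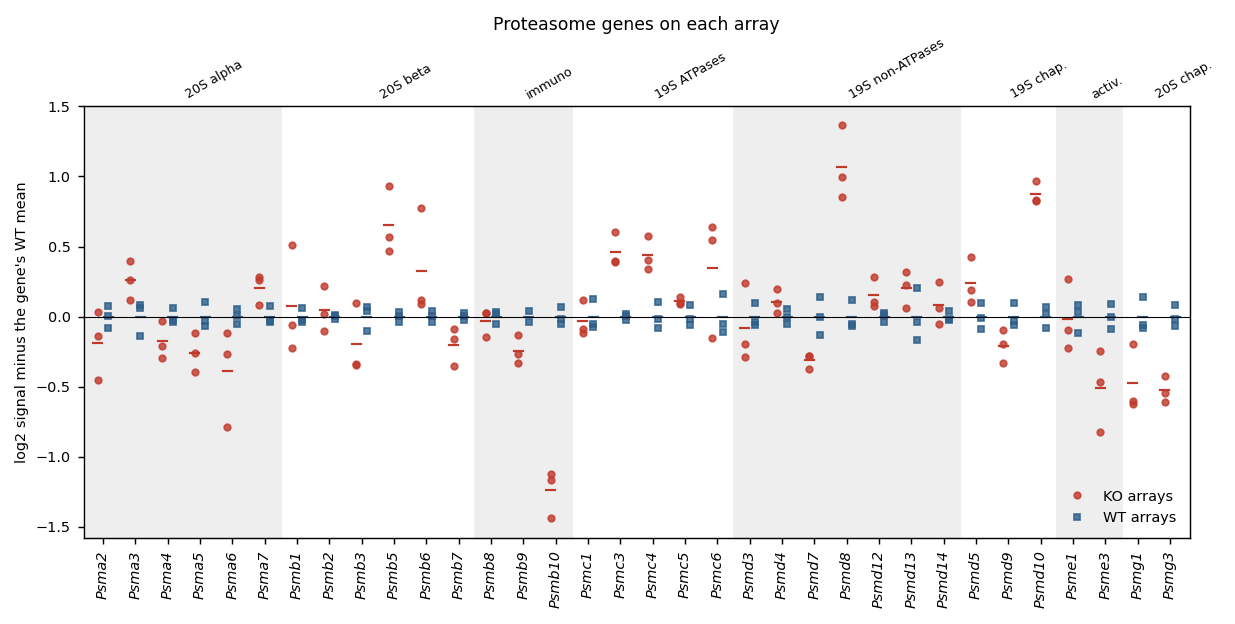
Normalized log2 signal of each of the 34 proteasome genes on each array, given relative to the gene's WT mean. Red circles are the 3 KO arrays, blue squares the 3 WT arrays and short lines their means, with genes ordered by role; Psmb9 has 2 WT values. Psmb10, Psmd8 and Psmd10 lie farthest from their WT means, and the KO points scatter more widely than the WT points for most genes.

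Replicates differed more among KO cultures than among WT cultures. The SD of the KO values exceeded that of the WT values for 31 of the 34 genes, with medians of 0.14 and 0.08. The widest spread in KO was that of Psmc6 (SD 0.43) and the widest in WT that of Psmd13 (SD 0.19). KO replicate 3 was the value farthest from the KO mean for 18 of the 34 genes, against 10 for KO replicate 1 and 6 for KO replicate 2. With KO replicate 3 left out, 7 genes were higher and 10 lower, and 55.2% of the probes above background on all arrays were then called. Its fewer probes above background and higher local background are the values given above, and their part in these counts was not tested.

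The alpha subunits form the outer rings of the core particle and its gate. None of the 6 measured passed the test. Of these, 4 (Psma3, Psma5, Psma6 and Psma7) had an unadjusted limma p below 0.05. So had at least 5715 of all 19590 probes tested, the rank of Psma6, whose p was the largest of the 4. Among the probes above background on all arrays, as all 6 genes were, 41.0% passed even the adjusted threshold. The differences of the 6 genes ran from -0.39 to 0.26. Psma3 was 13.08, 12.93 and 13.21 in KO and 12.90, 12.68 and 12.88 in WT (difference 0.26, SE 0.09, adjusted p = 0.0921). Psma5 was 12.60, 12.47 and 12.75 in KO and 12.80, 12.97 and 12.83 in WT (difference -0.26, SE 0.09, adjusted p = 0.0712). These subunits sit in the same ring and their differences have opposite signs. Psma6 was 12.06, 12.21 and 11.54 in KO, the last on KO replicate 3, and 12.38, 12.28 and 12.33 in WT (difference -0.39, adjusted p = 0.132). For Psma3, Psma5, Psma6 and Psma7 the groups did not overlap, and for Psma2 and Psma4 they did. Psma3 and Psma7 passed under median scaling (0.31 and 0.40, adjusted p = 0.0275 and 0.0255), and Psma5 did without KO replicate 3 (-0.33, adjusted p = 0.0055). In the latter fit 55.2% of the probes above background on all arrays were called.

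The beta subunits form the inner rings, and Psmb5, Psmb6 and Psmb7 carry the active sites. Psmb5, the chymotrypsin-like site, was the only 1 of 6 constitutive beta genes past the threshold. Its level was 12.67, 12.77 and 13.14 in KO and 12.17, 12.24 and 12.21 in WT. Every KO array was above every WT array, 1.58-fold on average (difference 0.66, SE 0.12, adjusted p = 0.00492). Psmb6, the caspase-like site, was 12.34, 12.37 and 13.04 in KO and 12.26, 12.30 and 12.22 in WT (difference 0.33, SE 0.17, adjusted p = 0.266). Most of that difference lies on KO replicate 3, and without it the difference was 0.10. Psmb7, the trypsin-like site, was 11.43, 11.62 and 11.69 in KO and 11.75, 11.78 and 11.80 in WT (difference -0.20, SE 0.08, adjusted p = 0.109). Among the structural beta subunits Psmb1, Psmb2 and Psmb3 the differences were 0.07, 0.04 and -0.20, and the groups overlapped for each. Psmb5 kept its call under every alternative except the authors' value table (0.58, adjusted p = 0.0806). The gene table also lists pseudogenes of Psma5, Psmb5, Psmb6 and Psmb7, and whether their transcripts reach these probes was not tested.

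The immunoproteasome replaces these 3 sites with Psmb8, Psmb9 and Psmb10. Psmb10, which takes the place of Psmb7, had the largest difference of the 34 genes. It was 8.94, 8.90 and 8.63 in KO and 10.01, 10.13 and 10.05 in WT. Its background-subtracted intensities were 517, 510.2 and 333 in KO and 858, 1019 and 846 in WT. KO was 2.36-fold lower, with a wide gap between the groups (difference -1.24, SE 0.09, adjusted p = 5.09e-05), and the call held under all 17 processing and replicate alternatives, with differences of -1.34 to -1.04. Psmb8, which takes the place of Psmb5, was near background on all 6 arrays, at 5.91, 5.91 and 5.75 in KO and 5.84, 5.91 and 5.92 in WT. Psmb9, which takes the place of Psmb6, was also near background on every array, at 5.80, 5.87 and 6.01 in KO and 6.10 and 6.18 in WT replicates 1 and 3, the spot of WT replicate 2 being left out as marked by the scanner software. No fold is given for either. Psmb9 passed the threshold under 4 of the 13 alternatives that gave it a value, at lower KO values each time. With both groups near background, the absence of a call says little about Psmb8 and Psmb9. Whether the change of Psmb10 exceeds that of Psmb7 was not tested.

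**Figure D2:**
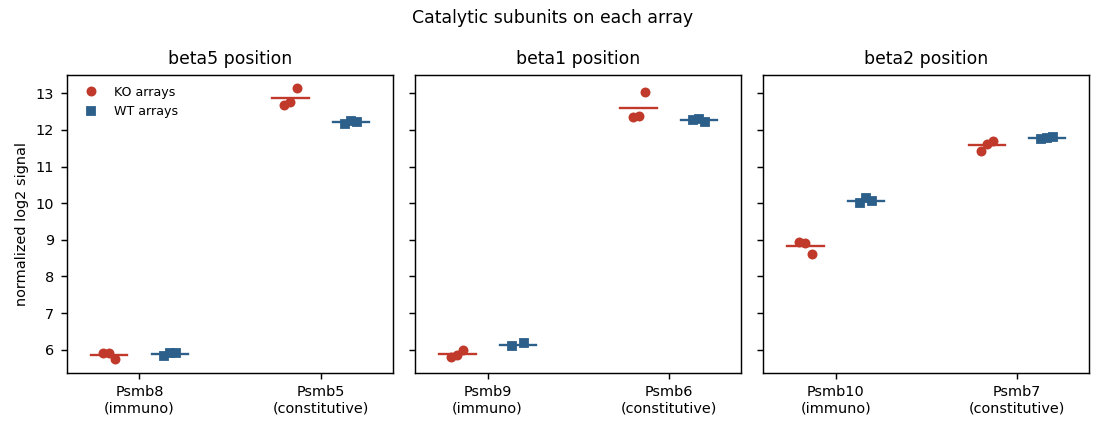
Normalized log2 signal of the 3 immunoproteasome subunits and the constitutive subunits they replace, on each array; red circles are KO arrays, blue squares WT arrays and lines the means. Psmb10 is lower in KO (8.63 to 8.94) than in WT (10.01 to 10.13), Psmb5 is higher, and Psmb8 and Psmb9 lie near background in both groups. Levels of different genes come from different probes and are not comparable.

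The regulatory particle has a base with a ring of 6 ATPases, of which 5 were measured. Psmc3 and Psmc4 were higher in KO and the other 3 did not pass. All 5 were above background on all arrays, a condition under which 18.8% of probes were called higher. Psmc3 was 11.78, 11.57 and 11.57 in KO and 11.18, 11.20 and 11.15 in WT, 1.38-fold higher (difference 0.46, SE 0.07, adjusted p = 0.00255). Psmc4 was 11.58, 11.34 and 11.41 in KO and 11.11, 10.98 and 10.92 in WT, 1.36-fold higher (difference 0.44, SE 0.08, adjusted p = 0.00651). The groups were apart for both genes. Both calls were lost with offset 0 (adjusted p = 0.0671 for Psmc3 and 0.0898 for Psmc4) and with the authors' table (0.0838 and 0.0851), at differences of 0.45 to 0.49. Psmc6 was 11.67, 11.76 and 10.98 in KO and 11.29, 11.02 and 11.08 in WT, so its KO replicates were split and the difference of 0.34 did not pass (adjusted p = 0.313). Without KO replicate 3, the low KO value, it was 0.59 (adjusted p = 2.88e-04). In that fit 55.2% of the probes above background on all arrays were called. Psmc1 and Psmc5 differed by -0.03 and 0.11.

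The remaining subunits of the regulatory particle bind, strip and hand over the ubiquitin-tagged proteins. Of 7 measured, Psmd8 was higher, Psmd7 lower, and 5 did not pass. All 7 were above background on all arrays, a condition under which 18.8% of probes were called higher and 22.2% lower. Psmd8, a subunit of the lid, was 11.31, 11.16 and 11.67 in KO and 10.24, 10.43 and 10.25 in WT. It was 2.10-fold higher in KO, with the groups well apart (difference 1.07, SE 0.13, adjusted p = 6.76e-04), and it passed under all 17 alternatives, at 0.92 to 1.26. Psmd7, the lid subunit that pairs with the deubiquitinase Psmd14, was 11.14, 11.04 and 11.13 in KO and 11.56, 11.41 and 11.28 in WT (1.24-fold lower, difference -0.31, SE 0.08, adjusted p = 0.0254). That call is weak, since it was lost under 9 of the 17 alternatives, among them median scaling (-0.12, adjusted p = 0.576) and leaving out either KO replicate 1 or 2 or WT replicate 1 or 2 (adjusted p = 0.0517 to 0.0864). Psmd14 itself differed by 0.09, the ubiquitin receptor Psmd4 by 0.11, and the lid subunits Psmd3, Psmd12 and Psmd13 by -0.08, 0.15 and 0.20. Of these 5, the groups were apart for Psmd12 only.

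Over the 24 measured constitutive subunits of both particles, 4 were higher in KO, 1 was lower and 19 did not pass, with a median difference of 0.10. All 24 were above background on all arrays. Of all probes that met this condition, 18.8% were called higher and 22.2% lower, with a median difference of -0.03. For the 22 genes of any role that were above background on all arrays and did not pass, the 95% intervals of the differences lay within -0.76 (Psma6) and 0.80 (Psmc6). The groups did not overlap for 10 of these 22. Of all probes above background on every array, called ones included, they did not overlap for 54.9%.

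**Figure D3:**
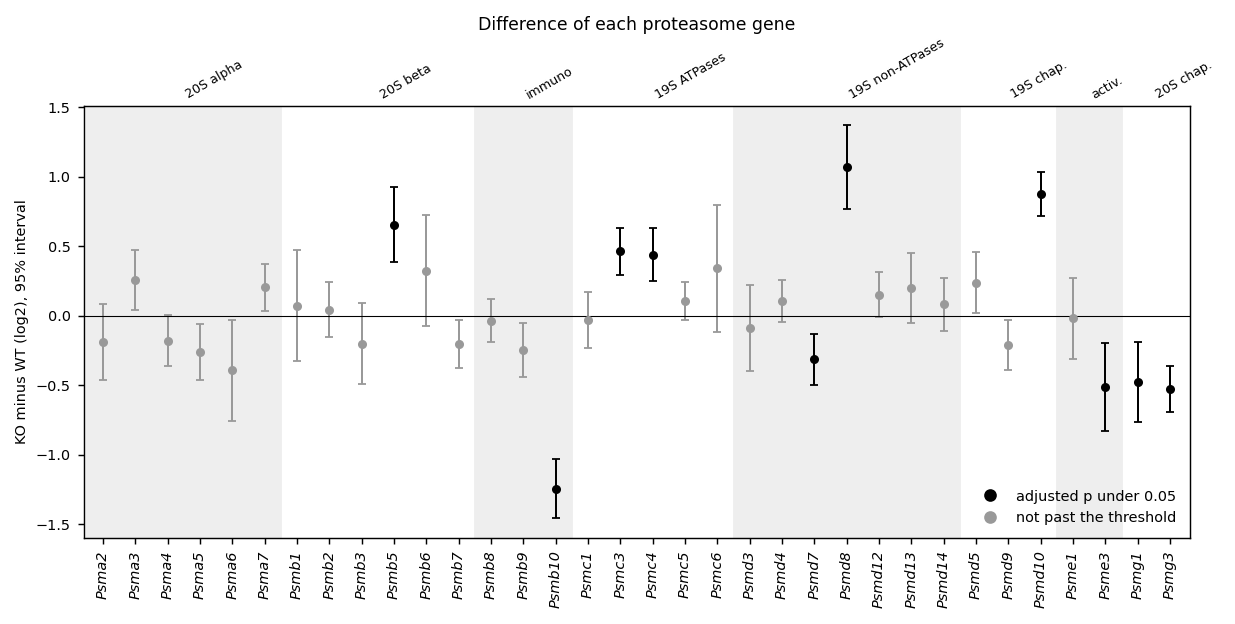
KO minus WT difference in log2 signal for each of the 34 genes, with its 95% interval from the fit over all probes. Black points passed an adjusted p of 0.05 and grey points did not; genes are ordered by role as in the plot of single arrays. The called genes lie on both sides of 0, from -1.24 (Psmb10) to 1.07 (Psmd8).

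Assembly chaperones had calls in both directions. All those measured were above background on all arrays, a condition under which 18.8% of probes were called higher and 22.2% lower. Psmd10, known as gankyrin, is a chaperone of the base that binds Psmc4 and is also known to bind the retinoblastoma protein and Mdm2. It was 10.24, 10.23 and 10.38 in KO and 9.42, 9.32 and 9.48 in WT, which is 1.84-fold higher and far outside the replicate spread (difference 0.88, SE 0.07, adjusted p = 6.86e-05). It passed under all 17 alternatives, at 0.83 to 1.07. The other base chaperones, Psmd5 and Psmd9, differed by 0.24 and -0.21 without passing (adjusted p = 0.122 and 0.111), and the groups were apart for each. Both passed without KO replicate 3 (0.31 and -0.27, adjusted p = 0.0175 and 0.0165), and in no other fit that left out 1 replicate. Without KO replicate 3, 55.2% of the probes above background on all arrays were called. Of the 4 chaperones of core particle assembly, 2 were measured, Psmg1 and Psmg3, and both were lower. Psmg3 was 9.46, 9.58 and 9.39 in KO and 9.94, 10.09 and 9.99 in WT, 1.44-fold lower (difference -0.53, SE 0.07, adjusted p = 0.00122). That call was lost under median scaling (-0.32, adjusted p = 0.184) and with the authors' table (adjusted p = 0.117). Psmg1 was 9.57, 9.59 and 10.00 in KO and 10.11, 10.33 and 10.13 in WT, 1.39-fold lower (difference -0.47, SE 0.12, adjusted p = 0.028), with KO replicate 3 close to the WT values. It lost its call under 9 of the 17 alternatives, including without any 1 replicate other than KO replicate 3 (adjusted p = 0.0671 to 0.111).

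Of the activators that can cap the core in place of the regulatory particle, Psme3, a nuclear activator that works without ubiquitin, was lower in KO. It was 10.10, 9.89 and 9.53 in KO and 10.26, 10.35 and 10.44 in WT, 1.43-fold lower (difference -0.51, SE 0.14, adjusted p = 0.0316). The call was lost under 7 of the 17 alternatives, among them median scaling (-0.31, adjusted p = 0.395), offset 0, the authors' table, and leaving out KO replicate 2 or any WT replicate (adjusted p = 0.0687 to 0.125). Psme1, a subunit of the interferon-inducible activator, overlapped between the groups (difference -0.02, adjusted p = 0.952). Psmf1, a proteasome inhibitor matched through a synonym in the gene table and therefore not among the 34, differed by -0.08 (adjusted p = 0.564).

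Genes that work with the proteasome were taken from 5 lists, of which 44 of 52 genes were measured. In all, 8 were higher in KO (18.2%) and 7 lower (15.9%). Together these are 34.1% of the measured genes, which lies between the 22.6% of all probes and the 41.0% of probes above background on all arrays. In the list around Nfe2l1, 4 of 7 measured genes were higher and none lower. Of all probes 10.4% were called higher, and of those above background on all arrays 18.8%. This list, like the others, was chosen with earlier results of these data known, so setting its count beside these shares is no test. The 4 included Nfe2l2, a relative of Nfe2l1 that drives antioxidant genes, 1.68-fold higher (difference 0.75, adjusted p = 0.00203). Its partner Mafk (0.31, adjusted p = 0.00364) and Ngly1, the glycanase that takes part in activating Nfe2l1 (0.58, adjusted p = 0.0109), were also among the 4. Both were dim, at WT intensities of 30.7 to 32.6 for Mafk and 28.3 to 46.8 for Ngly1. The call of Ngly1 was lost without WT replicate 2, without WT replicate 3 and with the authors' table. The fourth was Mafg, another partner, named after its value was seen (0.41, adjusted p = 0.0293), and its call held under 11 of the 17 alternatives. Nfe2l1 itself, named after its value was seen, differed by 0.29 without passing (adjusted p = 0.0764). It was also dim, at WT intensities of 28.8 to 34.0, and passed under 3 of the 17 alternatives, among them median scaling. Keap1 and Maff were also named after their values were seen. Keap1 differed by -0.24 without passing (adjusted p = 0.0867), and Maff was near background on every array. Among 7 proteasome partners outside the prefixes 1 passed, Sem1, a small lid subunit, 1.49-fold lower (difference -0.58, adjusted p = 9.78e-04). The proteasome-bound deubiquitinase Usp14 differed by -0.59 (adjusted p = 0.144) and the thioredoxin-like Txnl1 by -0.37 (adjusted p = 0.0515).

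Counts for 3 more lists follow. Over all probes, 10.4% were called higher and 12.1% lower. Among probes above background on all arrays these shares were 18.8% and 22.2%. The ubiquitin list, with all 11 measured genes above background on all arrays, had 2 higher and 2 lower. The conjugating enzyme genes Ube2r2 and Ube2s were higher (0.52 and 0.40, adjusted p = 0.0111 and 0.0107) and Ube2d2a was lower (-0.46, adjusted p = 0.00363). All of these calls were lost with offset 0 and with the authors' table. That of Ube2d2a was also lost under median scaling, and that of Ube2r2 without WT replicate 3. Of 9 genes for shuttle factors and the p97 segregase, Faf1 (-0.45, adjusted p = 0.00748) and Ubqln4 (-0.24, adjusted p = 0.0431) were lower. The call of Faf1 held under 14 of the 17 alternatives, not under median scaling, offset 0 or the authors' table. That of Ubqln4 held under 5, and was lost under median scaling and without any 1 replicate other than KO replicate 3. Among 10 antigen processing genes, 2 were higher and 2 lower. Irf1, a transcription factor that drives immunoproteasome genes, was 1.56-fold lower (-0.64, adjusted p = 6.04e-04). Tap2, a peptide transporter subunit, was above background on all 3 WT arrays and no KO array, at least 1.24-fold lower (adjusted p = 1.56e-04). The oxidoreductase of the peptide loading complex, Pdia3, was higher (0.58, adjusted p = 0.00415), a call lost with offset 0 and with the authors' table. Tap1, Irf2 and Tapbp, named after their values were seen, were near background on every array.

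**Figure D4:**
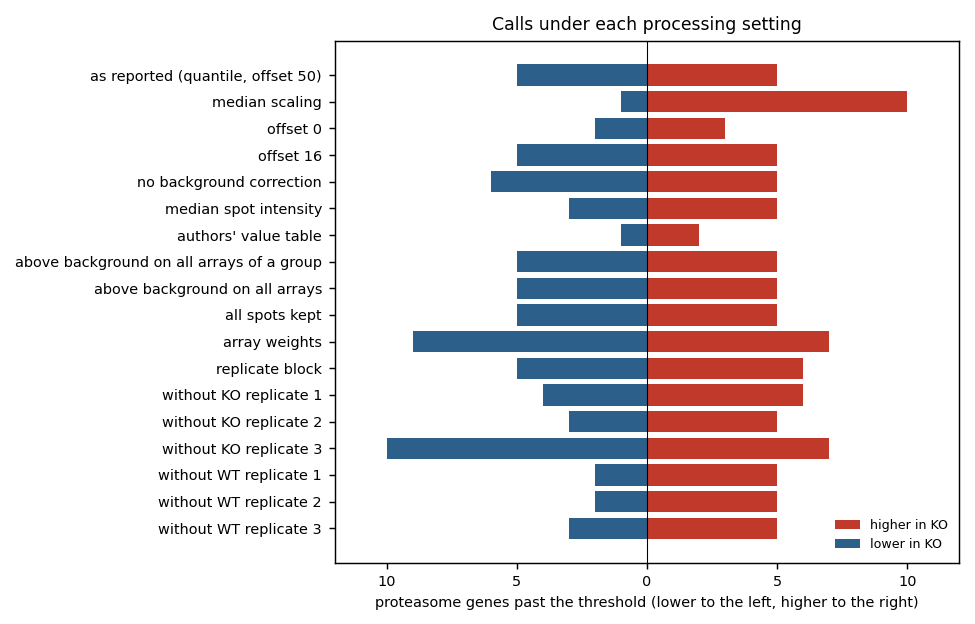
Number of the 34 proteasome genes past an adjusted p of 0.05 under each processing or replicate setting, with genes higher in KO to the right (red) and lower in KO to the left (blue). The reported setting gives 5 and 5, median scaling 10 and 1, and the fit without KO replicate 3 gives 7 and 10.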

How the data were processed

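Total RNA of 6 cultures was hybridised to CodeLink 20K mouse arrays, with a culture in Cy5 and a pool of its own genotype in Cy3 per the labels' protocols. Each file holds 1 channel, taken as that of the culture it is named for, so values were analysed as 1-colour intensities. The deposited files give, per spot, mean and median signal intensity with the local background. The authors' value table holds background-subtracted intensities divided by 1 constant per array. The columns of KO replicates 2 and 3 are exchanged in it relative to the files, as are the names inside both files. Replicate numbers follow the titles, which leaves the groups unaffected. The submitters' processing notes name limma without a version. Scanner software and genome build are not given in the sources used here.

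Background was corrected with normexp (offset 50) on all spots, masked, contaminated and irregular spots were removed (saturated ones kept), control spots were dropped, and log2 values of 19801 gene probes were quantile normalized. KO and WT were compared over 19590 probes with at least 2 values per group by lmFit and eBayes (limma 3.58.1, R 4.3.3), as a two-sided test with p-values adjusted by Benjamini-Hochberg across these probes and a threshold of 0.05. The fit was run on simulated normalized values, with known changes placed in brighter probes and the same noise in both groups. That run did not cover the scaling of arrays or the wider spread in KO. Fold changes of dim probes are pulled toward 1 by the offset. "At least" folds set the brighter mean against the lowest signal above background. Probes were named through RefSeq accessions in a GRCm38.p6 gene table (10712 of 19801). That table served for names and promoter windows only.

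All genes past the threshold and the catalytic subunits are given by array, and of each partner list the 3 genes with the smallest adjusted p, except that 1 of these is not reported here. The proteasome genes and the gene lists were chosen with earlier results of these data known. Replicate numbers were checked for pairing: deviations of same-numbered cultures correlated at 0.24, -0.12 and 0.10, so the numbers were not treated as pairs. With KO replicates 2 and 3 exchanged, as the stored names have them, the values are 0.24, 0.20 and -0.09. The numbering is uncertain, so this check does not settle pairing, and the replicate block below rests on the same numbers. Alternatives covered scaling, offset, background, spot summary, the authors' table (values of 0 or below left out), filters, flags, array weights, a replicate block, each replicate left out, and naming by synonym.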

Additional observations from a re-analysis of the deposited data

How the results depend on the processing

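Psmb10, Psmd8 and Psmd10 kept their direction and call under all 17 alternatives in which the fit or its values changed, and Psmb5 under 16 of them. Over all 572 values of single genes under these alternatives, 493 kept direction and side of the threshold, 32 lost a call, 24 gained one and 23 changed sign, the last in 7 genes and 0 times where either fit made a call. These were Psma4 (0.023), Psmc1 (0.18), Psmd3 (0.13) and Psme1 (0.20) under median scaling; Psmb1 (-0.13), Psmb8 (0.024), Psmc1 (0.020) and Psme1 (0.039) with the authors' table; Psmb1 (-0.11), Psmb2 (-0.033) and Psmb8 (0.0069) with array weights; and Psmb8 (0.0023), Psmd3 (0.051) and Psme1 (0.0088) with the median spot intensity. With 1 replicate left out, the ranges that include a change of sign were -0.14 to 0.22 for Psmb1, -0.045 to 0.12 for Psmb2, -0.062 to 0.022 for Psmb8, -0.10 to 0.034 for Psmc1, -0.24 to 0.019 for Psmd3 and -0.16 to 0.085 for Psme1. The counts of proteasome genes higher and lower in KO, 5 and 5 as reported, were 10 and 1 under median scaling, 3 and 2 with offset 0, 2 and 1 with the authors' table and 7 and 9 with array weights, and 3 were lower with the median spot intensity. Their median difference was 0.18 under median scaling and -0.061 with array weights, and 0.01 as reported. Leaving out 1 replicate at a time gave 5 to 7 higher, 2 to 10 lower and a median of -0.074 to 0.072. The lowest counts of lower genes, 2, came without WT replicate 1 or WT replicate 2, and 3 were lower without WT replicate 3 or KO replicate 2. Partner genes, 8 higher and 7 lower as reported, came to 3 and 3 with offset 0, 2 and 3 with the authors' table and 3 lower under median scaling, and to 5 to 11 higher and 5 to 11 lower without 1 replicate. Over the whole array 4419 probes passed as reported, 2717 with offset 0 and 2285 with the authors' table. The cause of these shifts was not tested. With the replicate number as a block, a replicate block changed the proteasome counts to 6 and 5 by adding Psma3 (adjusted p = 0.0363). Each gene had 1 probe, so no other probe could be tried. Dim signals limit what can be said of Psmb8 and Psmb9.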
